A study of Mus musculus with 4 samples.

Results

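The 7 genes described here, Meg3, Rian, Mirg, H19, Ndn, Grb10 and Peg3, were chosen by name as imprinted genes known from long-term hematopoietic stem cells (LT-HSCs), out of 32285 genes in the count matrices. Their enrichment in cells with stem markers and their difference between genotypes were measured by single-cell RNA-Seq of LSK cells, the Lineage-negative, Sca-1-positive, cKit-positive bone marrow fraction that holds stem cells and multipotent progenitors (MPPs). Wild-type cells came from mice with floxed Sin3B alleles and no Cre (Sin3B F/F), and knockout cells from Sin3B F/F mice that also carried Vav1-iCre (Sin3BH-/-), which deletes Sin3B in blood cells from fetal life onwards. All mice were C57BL/6, those of the homeostasis experiment were male per the study's methods, and their age was not given in the sources used here. Mice were either untreated (homeostasis) or killed 9 days after 1 intraperitoneal injection of 5-fluorouracil (5-FU, 100 mg/kg), which kills cycling cells. Each condition was a separate library, so no test between conditions was made, and values of both are set side by side only. Within a library, cells of 2 mice per genotype were pooled, carried a hashtag antibody that marks the genotype, and were counted as 1 pool, which leaves 4 pools in all and no replicate of a genotype within a condition.

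Imprinted genes are transcribed from only the maternal or only the paternal copy, because the copies carry different DNA methylation set in the germ line. Many of them restrain or promote growth in the fetus, and in adult bone marrow a group of them is known to be more abundant in LT-HSCs than in progenitors. Because all mice were of a single inbred strain, the reads cannot be assigned to a parental copy, so these data give the level of each gene and not its imprinting. Meg3, Rian and Mirg are noncoding RNAs transcribed from the maternal copy of the Dlk1-Dio3 domain, and Rian and Mirg host small nucleolar RNAs and microRNAs. H19 is a maternally expressed noncoding RNA next to Igf2. Ndn encodes Necdin, a paternally expressed protein that restrains cell division. Grb10 encodes an adaptor that dampens insulin and growth factor receptors, and Peg3 a paternally expressed zinc finger protein.

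In the GENCODE M21 annotation of GRCm38, Meg3 (ENSMUSG00000021268) spans chr12:109541001-109571726 on the plus strand. Rian (ENSMUSG00000097451) starts 32214 bases after its end at chr12:109603940-109661716, and Mirg (ENSMUSG00000097391) follows 68048 bases further on at chr12:109729764-109749460, both on the plus strand. The protein-coding gene Dlk1, a paternally expressed gene of the same domain, ends 77665 bases before Meg3. Ndn (ENSMUSG00000033585) is a protein-coding gene at chr7:62346569-62350262 on the plus strand, Peg3 (ENSMUSG00000002265) a protein-coding gene at chr7:6703892-6730431 on the minus strand, and H19 (ENSMUSG00000000031) a noncoding gene at chr7:142575529-142578143 on the minus strand. Grb10 (ENSMUSG00000020176), also protein-coding, lies at chr11:11930508-12038683 on the minus strand.

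Promoter windows of 300 bases, from 250 before to 50 after a RefSeq start in GRCm38.p6, were read for 6 of the 7 genes. The windows of Meg3, Ndn and Grb10 are shown because these genes carry the enrichment and genotype results that follow. The capitals in the Meg3 window mark the cAMP response element TGACGTCA, a palindrome and thus the same on both strands.
Meg3, chr12:109540746-109541045, plus strand: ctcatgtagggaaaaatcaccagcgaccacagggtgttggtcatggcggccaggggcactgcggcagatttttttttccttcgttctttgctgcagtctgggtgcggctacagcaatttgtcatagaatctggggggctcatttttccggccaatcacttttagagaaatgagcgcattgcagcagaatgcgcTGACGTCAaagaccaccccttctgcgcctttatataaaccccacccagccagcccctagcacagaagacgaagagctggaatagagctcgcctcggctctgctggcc
Ndn, chr7:62348027-62348326, plus strand: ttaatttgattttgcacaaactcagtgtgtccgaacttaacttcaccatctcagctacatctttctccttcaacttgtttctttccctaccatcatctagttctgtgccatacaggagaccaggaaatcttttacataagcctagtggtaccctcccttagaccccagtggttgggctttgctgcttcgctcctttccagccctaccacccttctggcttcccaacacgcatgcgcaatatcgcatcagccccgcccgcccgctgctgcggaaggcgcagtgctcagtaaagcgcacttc
Grb10, chr11:12037371-12037670, minus strand: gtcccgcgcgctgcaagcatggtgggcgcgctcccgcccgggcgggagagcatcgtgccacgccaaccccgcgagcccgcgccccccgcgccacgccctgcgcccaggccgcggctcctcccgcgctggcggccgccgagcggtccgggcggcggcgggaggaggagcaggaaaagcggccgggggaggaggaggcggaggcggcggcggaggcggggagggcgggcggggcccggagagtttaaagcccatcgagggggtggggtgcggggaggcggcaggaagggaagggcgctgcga
Of these windows only that of Meg3 held the element, which was found in 588 of 32851 promoter windows (1.79%), the Peg3 window among them. The Nr4a response motif AAAGGTCA, on either strand, was in none of the member windows and in 1.51% of all windows. The motif TTTGAA, an element of cell cycle gene promoters read on either strand, was in another Meg3 window and in 17.9% of all windows. The first windows held 13 CpG dinucleotides for Meg3, 11 for Ndn and 45 for Grb10, against a median of 7 over all windows. The Rian window held 0, and the second windows of Meg3 and Grb10 held 1 and 9. A match is a description of the letters only.

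After filtering, 10184 wild-type and 4108 knockout cells were kept at homeostasis, with medians of 6967 and 6606.5 unique molecular identifiers (UMIs) per cell. After 5-FU, 4855 wild-type and 3307 knockout cells were kept, with medians of 9306 and 10935 UMIs. Between 25.8% and 26.3% of the cells of a library were below the threshold for both hashtags and 3.4% to 6.02% were above it for both. Of all barcodes called as cells, 76 were shared between the libraries. To hold depth equal, each cell was thinned to 4000 UMIs and called a stem-gate cell when at least 3 of 9 stem markers (Procr, Slamf1, Fgd5, Mecom, Hlf, Mllt3, Hoxb5, Ctnnal1 and Tcf15) had a UMI. That gave 4621 wild-type and 2277 knockout stem-gate cells at homeostasis and 1355 and 1292 after 5-FU. Levels are full-depth UMI sums in counts per 1000000 gene UMIs of the cells summed (CPM), with exact Poisson 95% intervals. These intervals cover counting error only, and since UMIs of a cell are not independent they are too narrow for a gene carried by few cells.

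The gate was wide at homeostasis, where 51.7% of wild-type and 32.5% of knockout stem-gate cells also passed the lymphoid-primed gate (at least 2 of 7 markers), against 16.2% and 7.66% after 5-FU. Slamf1, Hoxb5 and Tcf15, used by the gate, were themselves over 1.5 times as high in knockout stem-gate cells at homeostasis, by 1.47, 1.18 and 0.69 on the log2 scale. After 5-FU Hoxb5 was again past 1.5-fold, at 0.68, while Slamf1 and Tcf15 were at 0.33 and 0.45. Sin3b was measured at 79.0 CPM in wild-type and 23.4 CPM in knockout stem-gate cells at homeostasis, and at 114.0 and 17.1 CPM after 5-FU. The labelled genotypes thus differed in Sin3b by -1.76 and -2.73 on the log2 scale, and the 3′ reads of the deleted gene were not at 0. Mature-lineage markers (8 genes) summed to 43.1 CPM in wild-type and 18.4 CPM in knockout stem-gate cells at homeostasis and to 7.44 and 7.70 CPM after 5-FU. In knockout cells outside the gate at homeostasis they summed to 160.3 CPM, of which S100a8 gave 69.2 CPM, while Cd3e had no UMI in any pool. Their part in the results that follow was not tested.

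Meg3, Rian, Ndn and Grb10 were each higher in stem-gate cells than in the other kept cells of the same pool, in 4 of 4 pools. In a fit over the 8 sums with pool as a block, Meg3 rose by 2.28 on the log2 scale in stem-gate cells (adjusted p = 1.85e-06, edgeR quasi-likelihood test with Benjamini-Hochberg adjustment over 15309 genes) and Rian by 2.26 (edgeR adjusted p = 7.29e-05). Ndn rose by 1.29 (edgeR adjusted p = 1.03e-05) and Grb10 by 1.23 (edgeR adjusted p = 0.000122). These are the 4 of 7 members that passed the filter on low counts, and each reached the filter's level in stem-gate sums as well as in at least 3 of 4 sums of other cells. The fit called 21.0% of all genes higher and 21.2% lower in stem-gate cells. Its median over all genes was 0.03 on the log2 scale, against 1.77 for the 4 members. The members were chosen as known from LT-HSCs and with earlier results of these data known, so this contrast is no independent support for an enrichment. Stem and other cells of a pool come from the same mice, and the pool is a block. The p-values thus measure how the stem-gate difference varied over 4 pools that differ in genotype or condition. They do not measure the spread between mice.

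For Meg3, stem-gate cells held 491 UMIs (13.1 CPM) in the wild-type homeostasis pool and 249 (14.5 CPM) in the knockout pool. After 5-FU they held 544 UMIs (40.1 CPM) and 266 (18.96 CPM). The other kept cells of these pools were at 2.61, 3.31, 8.50 and 2.77 CPM, each below the stem-gate level of its own pool. Rian was at 2.14 and 2.39 CPM in wild-type and knockout stem-gate cells at homeostasis and at 5.53 and 1.93 CPM after 5-FU. Its other cells were at 0.435, 0.504, 1.31 and 0.171 CPM, each below the stem-gate value of its own pool.

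Ndn was at 7.03 CPM in wild-type and 14.6 CPM in knockout stem-gate cells at homeostasis, and at 13.9 and 32.1 CPM after 5-FU. Its other cells were at 2.82, 5.47, 5.20 and 12.7 CPM, and the knockout value was the higher of each pair. Grb10 was at 31.1, 32.2, 45.1 and 37.4 CPM in stem-gate cells in the same order and at 10.0, 9.07, 21.1 and 20.6 CPM in the others. Within a condition the genotypes lay close together for Grb10, closer than the stem-gate and other cells did.

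The 3 remaining members were rare. H19 had 2 and 1 UMIs in wild-type and knockout stem-gate cells at homeostasis and 11 and 8 after 5-FU, carried by 3 and 4 cells. Only 1 H19 UMI fell in other kept cells, in the knockout pool at homeostasis. Mirg had 12, 2, 3 and 0 UMIs in stem-gate cells and 1, 0, 5 and 1 in other cells. Peg3 had 4, 10, 7 and 9 UMIs in stem-gate cells and 7, 1, 1 and 8 in others. When no filter on low counts was applied, H19 (log2 4.77) and Peg3 (log2 1.37) were also called higher in stem-gate cells (edgeR adjusted p = 5.9e-05 and 0.0462), on 22 UMIs against 1 for H19 and 30 against 17 for Peg3. Both genes reached the filter level in stem-gate sums only, so these calls are no support for an enrichment. In the wild-type homeostasis pool Peg3 was at 0.107 CPM in stem-gate and 0.1602 CPM in other cells.

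Among gates, the order of levels differed between members. Wild-type Meg3 at homeostasis was highest in stem-gate cells at 13.1 CPM (12.0 to 14.4), followed by cells of no gate at 7.47 CPM (5.31 to 10.2). Megakaryocyte-erythroid-primed (3.37 CPM), cycling (2.71), lymphoid-primed (1.97) and myeloid-primed cells (1.81) followed, and the intervals of these 4 neighbours overlapped. A cell outside the stem gate could pass several of these 4 gates, so their sums are not independent. After 5-FU the wild-type pool kept stem-gate cells and cells of no gate at the top, at 40.1 and 19.9 CPM, and cycling cells were lowest at 1.93 CPM. Rian followed the same top order in the 2 wild-type pools, 2.14 and 0.957 CPM at homeostasis and 5.53 and 2.85 CPM after 5-FU.

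Ndn and Grb10 were also high in megakaryocyte-erythroid-primed cells, those with at least 2 of 7 markers such as Gata1, Klf1 and Pf4. Knockout Ndn there was 10.9 CPM (6.77 to 16.7) at homeostasis, an interval that overlapped that of stem-gate cells (12.9 to 16.5). After 5-FU it was 17.1 CPM (14.6 to 19.8), below stem-gate cells at 32.1 CPM (29.2 to 35.2). Wild-type Grb10 was 26.4 CPM (21.3 to 32.3) in these cells at homeostasis against 31.1 CPM (29.4 to 33.0) in stem-gate cells, again overlapping. Lymphoid-primed and myeloid-primed cells were lowest for Grb10 in each of the 4 pools, between 4.41 and 8.78 CPM.

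**Figure D1:**
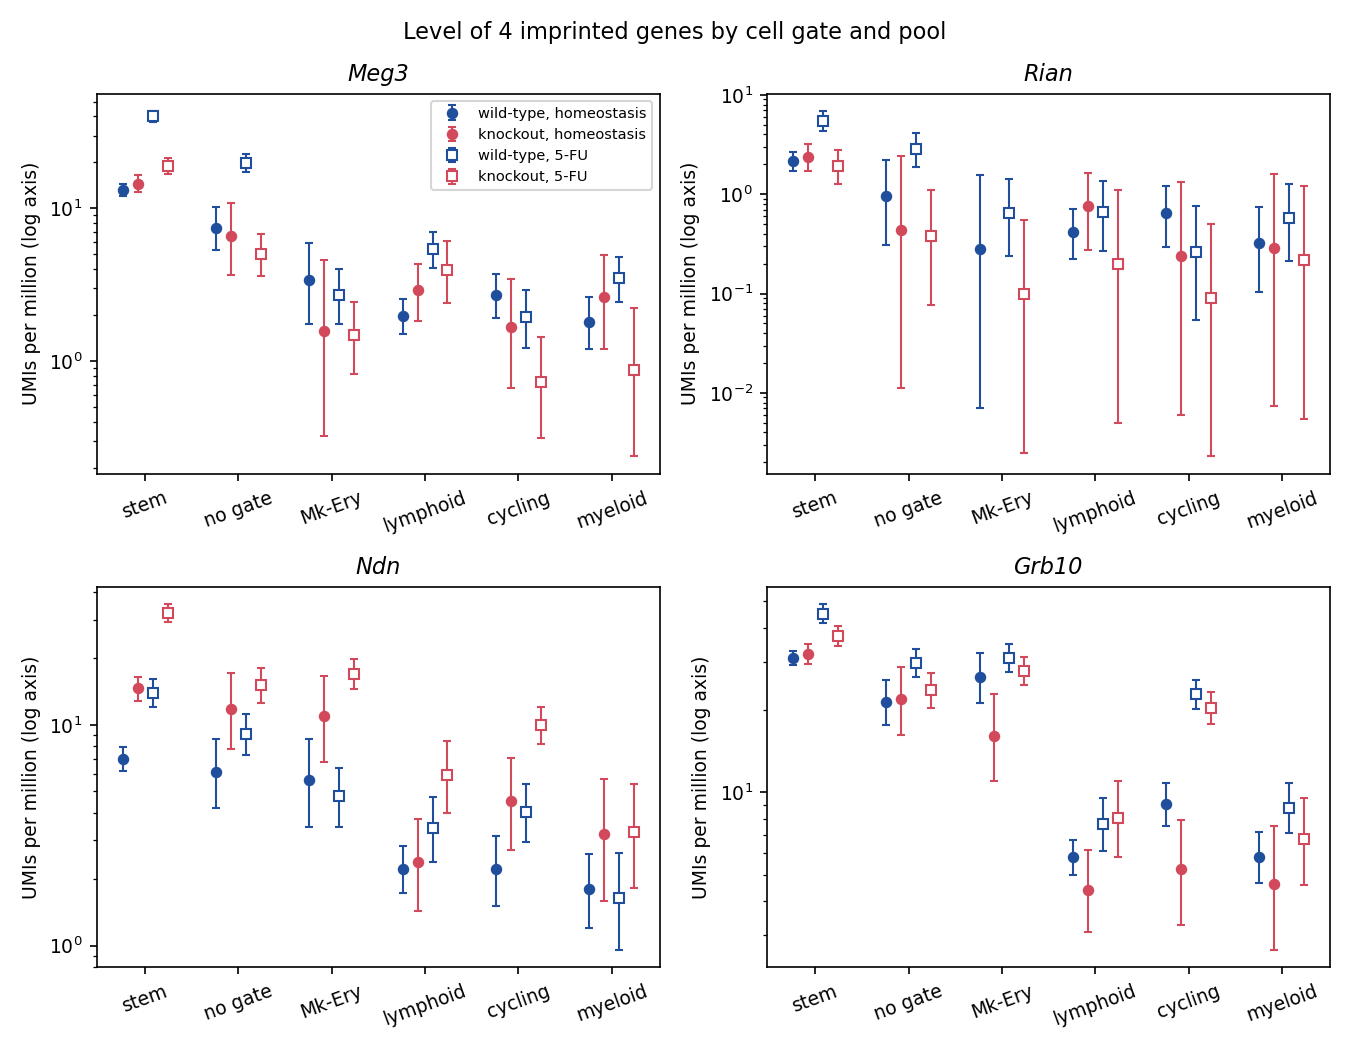
Level of Meg3, Rian, Ndn and Grb10 (CPM, log axis) in each cell gate, 1 point per pool with its exact Poisson 95% interval; gates other than stem leave out stem-gate cells, and sums without a UMI are not drawn. Stem-gate points are the highest of their pool in all 4 panels, from 13.1 to 40.1 CPM for Meg3, and Mk-Ery stands for the megakaryocyte-erythroid-primed gate.

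Cells of no gate, rather than lineage-primed cells, were the nearest to stem-gate cells for Meg3. Taken as the reference in place of all other cells, they lowered the log2 difference of Meg3 to 1.13, of Rian to 1.24, of Ndn to 0.63 and of Grb10 to 0.54. All 4 remained called (largest edgeR adjusted p = 0.00526).

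Cells with 3 or more stem markers held more of each of the 4 genes than cells with 0 or 1 in every pool, but the level did not go up at each step in all pools. Knockout Rian went from 0.81 CPM in cells with 0 or 1 marker to 0.335 CPM with 2 at homeostasis, and from 0.213 to 0.0959 CPM after 5-FU. Wild-type Meg3 at homeostasis went from 1.24 CPM in cells with 0 or 1 marker through 3.48, 7.88 and 19.5 CPM to 52.5 CPM in cells with 5 or more. The knockout pool went from 3.65 and 3.13 CPM to 11.4, 17.5 and 21.8 CPM. After 5-FU the wild-type series was 3.71, 16.5, 36.7, 55.4 and 20.9 CPM and the knockout series 1.92, 4.31, 16.1, 14.8 and 35.8 CPM. The top class, which holds 167 to 301 cells a pool, thus reversed the order of the genotypes after 5-FU, where 31 wild-type UMIs stood against 83 knockout UMIs. The intervals of these 5-FU values, 14.2 to 29.7 and 28.5 to 44.3 CPM, overlapped.

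The series was more even for Ndn. It went from 2.12 to 15.4 CPM over the 5 classes in wild-type cells at homeostasis and from 3.24 to 19.4 CPM in knockout cells. After 5-FU it went from 3.67 to 20.9 CPM in wild-type and from 10.1 to 47.8 CPM in knockout cells. The knockout value was the higher in each of the 5 classes in both conditions, although the intervals overlapped at homeostasis for 0 or 1 and for 5 or more markers. Grb10 went from 6.95 to 84.4 CPM and from 4.26 to 58.3 CPM at homeostasis, and from 17.4 to 62.7 CPM and from 18.2 to 42.2 CPM after 5-FU.

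**Figure D2:**
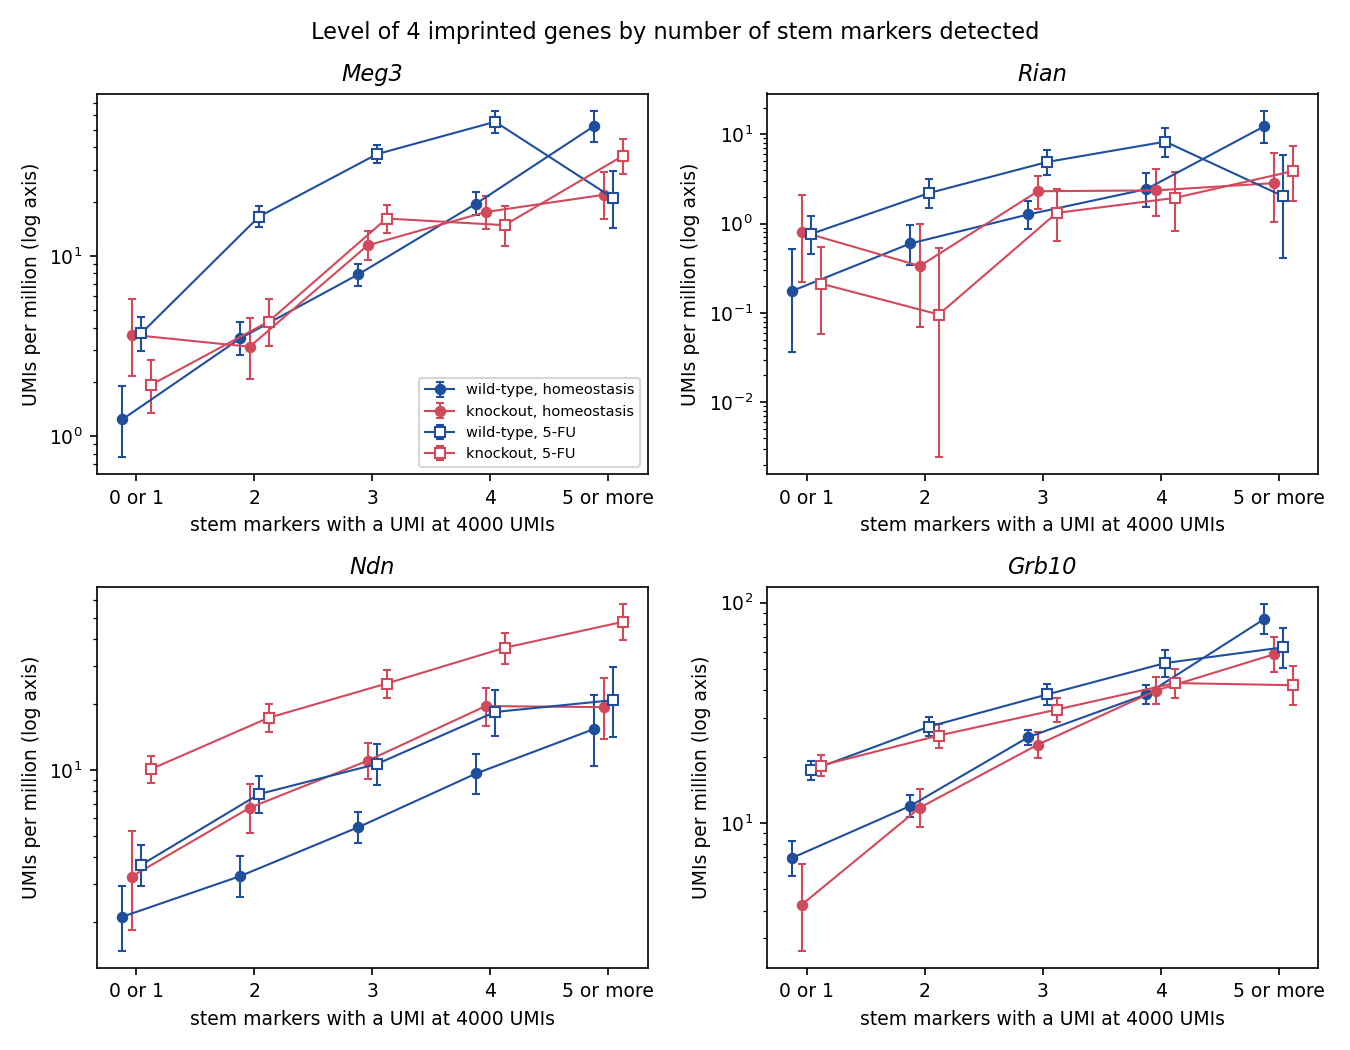
Level of 4 imprinted genes (CPM, log axis) against the number of stem markers with a UMI in the thinned cell, 1 line per pool with exact Poisson 95% intervals. Most lines climb from left to right, Ndn lies higher in knockout than in wild-type cells of the same condition throughout, and wild-type Meg3 after 5-FU drops from 55.4 to 20.9 CPM in the last class.

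Most stem-gate cells gave no UMI of a member. At 4000 UMIs a Meg3 UMI was found in 3.35% of wild-type (155 of 4621) and 3.29% of knockout stem-gate cells at homeostasis. After 5-FU the shares were 6.57% (5.31 to 8.02, exact binomial 95% interval) and 3.33% (2.42 to 4.46). Myeloid-primed cells were read for comparison, and how much of their signal was free RNA was not tested. Their shares were 0.37%, 0.86%, 0.667% and 0 of 243 cells. The last allowed up to 1.23% by the limit of 3 cells and 1.51% by the exact interval. Full-depth medians of myeloid-primed cells, 8549.5 to 16794 UMIs, exceeded those of stem-gate cells, 6417 to 9225.5. Their shares thus need not equal the free RNA background of stem-gate cells. Empty barcodes of the homeostasis library (1 to 100 UMIs) held Meg3 at 15.1 CPM, no lower than the stem-gate cells, so free RNA carried it too. Its 2.41 Meg3 UMIs per Rian UMI (1.60 to 3.71) differed from the ratio in stem-gate cells of the same library, 6.14 and 6.07.

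At the same depth Ndn was found at homeostasis in 2.99% and 6.15% of wild-type and knockout stem-gate cells, while after 5-FU it was in 6.72% and 12.3%, against 0.267% to 2.01% of myeloid-primed cells. Grb10 was found in 12.0%, 11.4%, 15.6% and 13.1% of stem-gate cells, against 1.72% to 2.88%. Rian was found in 0.757%, 0.922%, 2.07% and 0.851%, and its myeloid-primed shares of 0.0617% to 0.411% rest on 1 or 2 cells each.

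Meg3 was concentrated in few cells. At full depth its 491, 249, 544 and 266 stem-gate UMIs came from 224, 111, 132 and 78 cells, and up to 20, 11, 33 and 34 UMIs came from a single cell. The 10 cells with the most Meg3 held 20.8% and 25.7% of its UMIs at homeostasis and 34.0% and 51.1% after 5-FU. Ndn was spread more thinly, with at most 6 UMIs in any stem-gate cell and at most 11.1% of its UMIs in 10 cells.

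Rian was detected more often in cells that had Meg3, although 4 to 15 of the Rian cells of a pool had no Meg3 UMI. In wild-type stem-gate cells at homeostasis 12.9% of cells with a Meg3 UMI (20 of 155) also had a Rian UMI, against 0.336% of those without. The knockout pool gave 17.3% against 0.363%, and after 5-FU the pools gave 21.3% against 0.711% and 16.3% against 0.32%. The intervals with and without Meg3 did not overlap in any of the 4 pools. Meg3 UMIs per Rian UMI in stem-gate cells were 6.14 (4.84 to 7.87) and 6.07 (4.35 to 8.67) at homeostasis and 7.25 (5.69 to 9.36) and 9.85 (6.62 to 15.2) after 5-FU, which all overlap.

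For Ndn and Grb10 detection together with Meg3 depended on the pool. At homeostasis Ndn was in 12.3% of wild-type cells with Meg3 against 2.67% without, and in 14.7% of knockout cells with it against 5.86% without, with intervals apart in both pools. After 5-FU the shares with and without Meg3 were 8.99% and 6.56% in wild-type and 6.98% and 12.5% in knockout cells, and their intervals overlapped. Grb10 was in 25.2% against 11.5% of wild-type cells at homeostasis, and in 15 of 75 against 11.1% of knockout cells, where only the wild-type intervals were apart. After 5-FU Grb10 was in 13.5% of wild-type cells with Meg3 against 15.7% without and in 11.6% against 13.1% of knockout cells, with overlapping intervals.

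**Figure D3:**
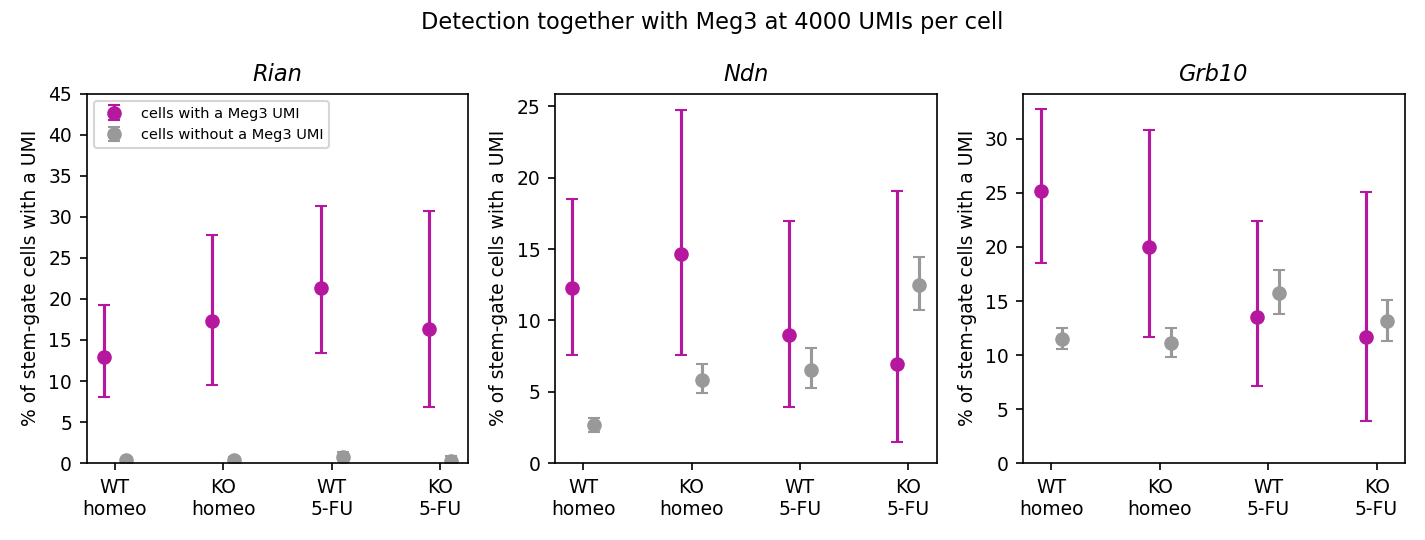
Share of stem-gate cells (percent, at 4000 UMIs) with a UMI of Rian, Ndn or Grb10, in cells with (purple) and without (grey) a Meg3 UMI, by pool with exact binomial 95% intervals. Rian lies between 12.9% and 21.3% in cells with Meg3 and under 1% in the rest.

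The stem-gate cells included a small group with a UMI of Nr4a1, an immediate early nuclear receptor gene, making up 1.17% (wild-type) and 0.922% (knockout) of them at homeostasis, with shares of 7.45% and 7.04% in the 5-FU pools. After 5-FU, wild-type stem-gate cells with Nr4a1 held Meg3 at 81.3 CPM (63.6 to 102.4) against 37.2 CPM (33.9 to 40.7) in those without. In knockout cells the values were 70.6 CPM (55.8 to 88.3) and 14.6 CPM (12.6 to 16.9). Rian was at 15.8 CPM (8.64 to 26.5) against 4.81 CPM (3.68 to 6.18) in wild-type and at 8.26 CPM (3.78 to 15.7) against 1.39 CPM (0.825 to 2.20) in knockout cells. After 5-FU Ndn and Grb10 had overlapping intervals, with 24.8 and 32.7 CPM for knockout Ndn and 35.8 and 37.5 CPM for knockout Grb10. At homeostasis the group was only 54 wild-type and 21 knockout cells. Knockout Grb10 was at 124.2 CPM (72.4 to 198.9, 17 UMIs) with Nr4a1 against 31.4 CPM (28.8 to 34.2) without, and wild-type Grb10 at 49.8 CPM (30.9 to 76.2) against 30.9 CPM (29.1 to 32.8), of which only the knockout intervals were apart. Meg3 at homeostasis was at 11.9 CPM (3.85 to 27.7) against 13.2 CPM in wild-type and at 51.2 CPM (20.6 to 105.4, 7 UMIs) against 14.2 CPM (12.5 to 16.1) in knockout cells, again with only the knockout intervals apart. In the 5-FU pools detection of Meg3 at 4000 UMIs did not separate in the same way, at 9.9% against 6.3% in wild-type and 4.4% against 3.25% in knockout cells, with overlapping intervals. At homeostasis it was detected in 1 of 54 wild-type cells with Nr4a1 against 3.37% without. In knockout cells it was in 1 of 21 (4.76%, 0.12 to 23.8) against 3.28%, with overlapping intervals in both pools. The Rian levels with Nr4a1 after 5-FU rest on 14 wild-type and 9 knockout UMIs. Rian was detected at 4000 UMIs in 2 of 101 of these wild-type cells (1.98%) against 2.07% without Nr4a1. Knockout shares were 3 of 91 (3.3%, 0.685 to 9.33) against 0.666% (0.288 to 1.31), and intervals overlapped in both 5-FU pools.

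Markers of stromal and endothelial cells, where Meg3 is abundant, were also read. Of stem-gate cells with a Meg3 UMI at full depth, 1 of 224, 0 of 111, 1 of 132 and 0 of 78 had a UMI of Cdh5, Cxcl12, Col1a1 or Lepr. These 4 genes had 0 to 22 UMIs each in the stem-gate sums. At 4000 UMIs, any of the 8 genes of the list was found in 5.16% of wild-type cells with Meg3 at homeostasis (2.25 to 9.92) against 12.5% without (11.6 to 13.6). The shares with and without Meg3 were 6 of 75 cells and 10.4% in the knockout pool, and 18.0% and 10.9% (wild-type) and 6.98% and 9.13% (knockout) in the 5-FU pools, with overlapping intervals in these 3. Without Pdgfrb the list was found in 13.5% of wild-type 5-FU cells with Meg3 (7.17 to 22.4) against 6.24% without (4.97 to 7.72), and in 4.65% against 7.21% of knockout ones. Kdr was in 6.74% (2.51 to 14.1) against 1.74% (1.09 to 2.62) and in 4.65% against 1.60% of these cells, with overlapping intervals too. The whole list of 8 genes summed to 26.7 to 36.3 CPM in stem-gate cells and 29.8 to 48.0 CPM in others. Most of it came from Pdgfrb, lower in stem-gate cells in all 4 pools (5.49 to 31.4 CPM against 15.6 to 44.8 CPM), and Col1a2, higher in them in all 4 pools (1.95 to 16.6 CPM against 1.33 to 12.0 CPM). Kdr, an endothelial receptor, was also higher in stem-gate cells in all 4 pools (1.36 to 4.64 CPM against 0.36 to 2.32 CPM). Between genotypes, stem-gate Pdgfrb was at 31.4 CPM in wild-type and 18.6 CPM in knockout cells at homeostasis and at 17.1 and 5.49 CPM after 5-FU. Col1a2 was at 1.95 and 8.50 CPM at homeostasis, and at 12.4 and 16.6 CPM after 5-FU, so these genes moved with genotype beside the members. The part of these genes in the result was not tested.

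Between genotypes, Ndn was the member that differed in the fit over both conditions. It rose by 1.14 on the log2 scale in knockout stem-gate cells (adjusted p = 0.000299, edgeR quasi-likelihood test over 14992 genes). The same fit called 2.11% of all genes higher and 1.65% lower. Meg3 (log2 -0.47, edgeR adjusted p = 0.29), Rian (log2 -0.63, edgeR adjusted p = 0.44) and Grb10 (log2 -0.10, edgeR adjusted p = 0.752) did not pass. The fit has 4 sums and 1 residual degree of freedom. Meg3 passed with a gate of at least 4 markers (log2 -0.72, edgeR adjusted p = 0.0162).

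Within a condition there is no replicate, so the ratio of the pools is given with its exact binomial interval for counting error only. Of the 4 members with at least 20 UMIs, 1 lay past 1.5-fold at homeostasis and 3 after 5-FU. Knockout over wild-type Ndn was 1.06 on the log2 scale (0.80 to 1.31) at homeostasis, from 263 wild-type and 251 knockout UMIs, and 1.20 (0.96 to 1.46) after 5-FU, from 189 and 450 UMIs. With equal weight for cells with 3, 4 and 5 or more markers it was 0.71 at homeostasis, below that interval, and 1.12 after 5-FU. Over all genes with at least 20 UMIs, 6.54% lay at least 1.5 times higher in knockout stem-gate cells at homeostasis and 4.54% after 5-FU. Outside the stem gate the Ndn ratio was 0.96 (0.53 to 1.38) at homeostasis and 1.28 (1.03 to 1.54) after 5-FU, where 6.21% and 4.49% of all genes lay as far up. The intervals of the Ndn ratio in stem-gate and other cells overlapped. More cells with Ndn and more Ndn RNA per cell cannot be told apart in a sum.

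Meg3 and Rian were past 1.5-fold lower in the knockout pool after 5-FU. The Meg3 ratio in stem-gate cells was -1.08 on the log2 scale (-1.30 to -0.87) and the Rian ratio -1.50 (-2.21 to -0.87), from 75 wild-type and 27 knockout UMIs. In that comparison 5.37% of all genes lay at least 1.5 times lower. Outside the stem gate Meg3 was at -1.61 (-1.99 to -1.26) and Rian at -2.81 (-4.62 to -1.61), the latter on 49 and 5 UMIs, where 7.23% of all genes lay as far down. Without the 10 cells richest in the gene in each pool, the stem-gate ratio of Meg3 was -1.51, and in stem-gate cells without Nr4a1 it was -1.35, both chosen after seeing the data. With equal weight for cells with 3, 4 and 5 or more markers the ratio was smaller, -0.76 for Meg3 and -1.06 for Rian. In cells with 5 or more markers the order was the opposite for Meg3, with overlapping intervals. It was at 20.9 CPM (14.2 to 29.7) in wild-type and 35.8 CPM (28.5 to 44.3) in knockout cells.

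At homeostasis the Meg3 ratio in stem-gate cells was 0.14 (-0.08 to 0.37) and that of Rian 0.17 (-0.42 to 0.72), neither past 1.5-fold, with 7.54% of all genes at least 1.5 times lower. Outside the gate Meg3 was at 0.35 (-0.18 to 0.85) and Rian at 0.28 (-1.28 to 1.53), where 7.43% of all genes lay at least 1.5 times lower. This value depended on the width of the gate. With at least 4 markers the ratios were -0.42 for Meg3 and -0.70 for Rian, and with equal weight for cells with 3, 4 and 5 or more markers they were -0.65 and -1.05. In cells with 5 or more markers, wild-type Meg3 was at 52.5 CPM (42.8 to 63.7) and knockout Meg3 at 21.8 CPM (16.0 to 29.1). In cells with exactly 3 it was the knockout that was higher, at 11.4 CPM (9.43 to 13.7) against 7.88 CPM (6.84 to 9.04).

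Grb10 lay at 0.05 (-0.10 to 0.19) at homeostasis and at -0.27 (-0.44 to -0.10) after 5-FU, both within 1.5-fold. H19, Mirg and Peg3 had under 20 UMIs over both stem-gate pools of a condition in the main gate and no ratio was called there. The 3 Mirg UMIs after 5-FU were all in wild-type stem-gate cells, where 0 UMIs in the knockout pool allow up to 0.214 CPM by the limit of 3 UMIs and 0.263 CPM by the exact interval. Peg3 at homeostasis had 4 wild-type and 10 knockout UMIs, a log2 ratio of 2.35 (0.65 to 4.57).

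**Figure D4:**
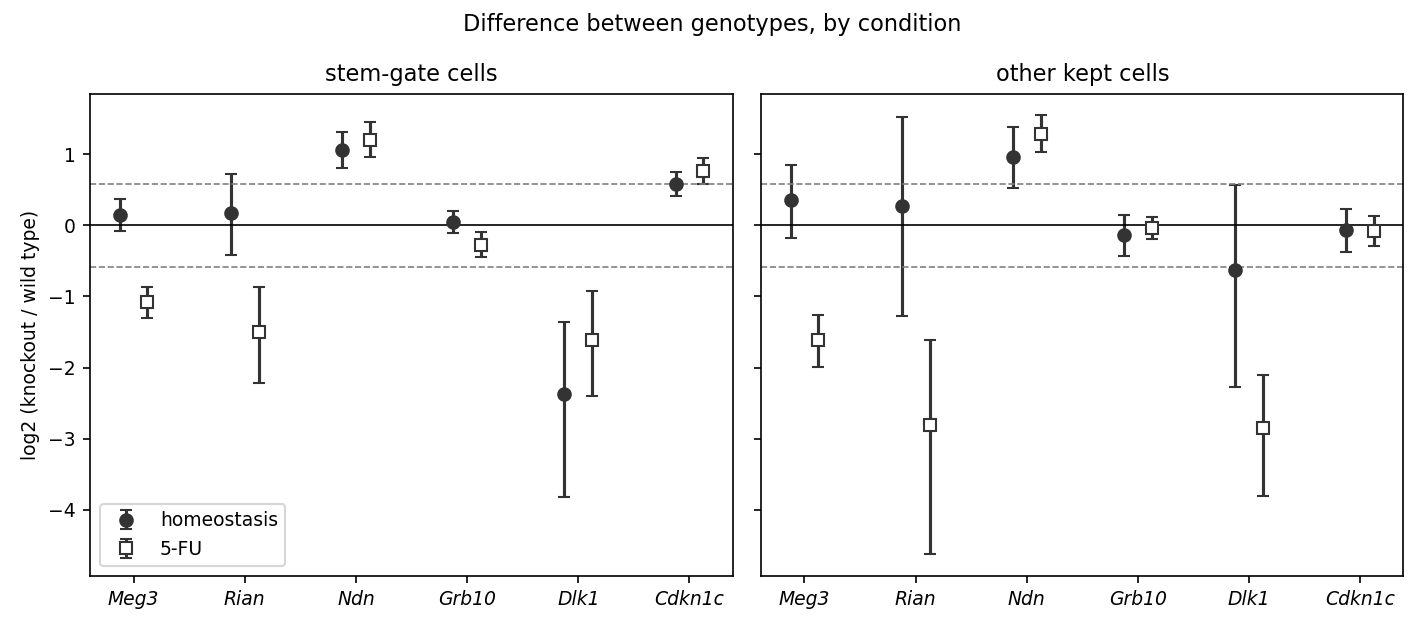
Log2 ratio of knockout over wild type for 4 members and 2 other imprinted genes at homeostasis (filled) and after 5-FU (open), in stem-gate cells and other kept cells, with exact binomial 95% intervals for counting error; dashed lines mark 1.5-fold. Ndn lies between 0.96 and 1.28 in all 4 comparisons, while Meg3 and Rian lie near 0 at homeostasis and between -1.08 and -2.81 after 5-FU.

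A list of 54 other genes known as imprinted was read beside the members, and whether they are imprinted in LSK cells was not measured. Because the members were chosen as known from LT-HSCs, that choice partly sets any contrast with this list. Of the 38 that could be tested, 16 rose and 6 fell in stem-gate cells, with a median of 0.19 on the log2 scale. Over all genes the same fit called 21.0% higher and 21.2% lower. Airn, a noncoding RNA antisense to Igf2r, rose by 1.72 (edgeR adjusted p = 2.04e-05), and Igf2r, the receptor that clears Igf2, by 1.49 (edgeR adjusted p = 4.29e-05). Since the genes overlap on opposite strands, reads assigned to either are uncertain where counting ignored strand, which the sources used here do not give. Cdkn1c, the cell cycle inhibitor p57, rose by 1.51 (edgeR adjusted p = 7.88e-05). Phlda2 (0.94), Ppp1r9a (0.59), Sgce (0.51) and Kcnq1ot1 (0.19) also rose, and Commd1 (-0.31), Gatm (-0.47) and Gnas (-0.25) fell, all at an edgeR adjusted p of 0.000687 or less.

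Between genotypes, 37 of the other imprinted genes could be tested and 3 rose and 2 fell in knockout stem-gate cells. Over all genes this fit called 2.11% higher and 1.65% lower. Cdkn1c rose by 0.67 (edgeR adjusted p = 0.00343), Airn by 0.63 (edgeR adjusted p = 0.00565) and Igf2r by 0.53 (edgeR adjusted p = 0.0402). Dlk1, which encodes a transmembrane ligand related to Notch ligands, fell by 1.93 (edgeR adjusted p = 0.00657), and Sfmbt2, a Polycomb-group gene, fell by 1.06 (edgeR adjusted p = 0.0108). By DESeq2 on the same sums 0 of these 5 were called, and 4 of them had an unadjusted p under 0.05.

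Dlk1 had 84 wild-type and 7 knockout UMIs in stem-gate cells at homeostasis and 66 and 22 after 5-FU, log2 ratios of -2.37 (-3.82 to -1.36) and -1.61 (-2.40 to -0.92). Outside the gate after 5-FU it had 134 and 14 UMIs, a ratio of -2.85 (-3.81 to -2.10), and at homeostasis 31 and 6 UMIs, a ratio of -0.62 (-2.27 to 0.57). Dlk1, Meg3 and Rian, neighbours on chromosome 12, were thus all lower in knockout cells after 5-FU both inside and outside the stem gate. Sfmbt2 was at 12.9 and 6.17 CPM at homeostasis and 3.54 and 1.71 CPM after 5-FU. These were the 2 genes of the list past 1.5-fold in the same direction in both conditions. Of the listed genes with at least 20 UMIs, 2 lay past 1.5-fold higher and 5 lower of 37 at homeostasis, and 2 and 5 of 36 after 5-FU. The shares over all genes were 6.54% higher and 7.54% lower at homeostasis, and 4.54% and 5.37% after 5-FU.

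**Figure D5:**
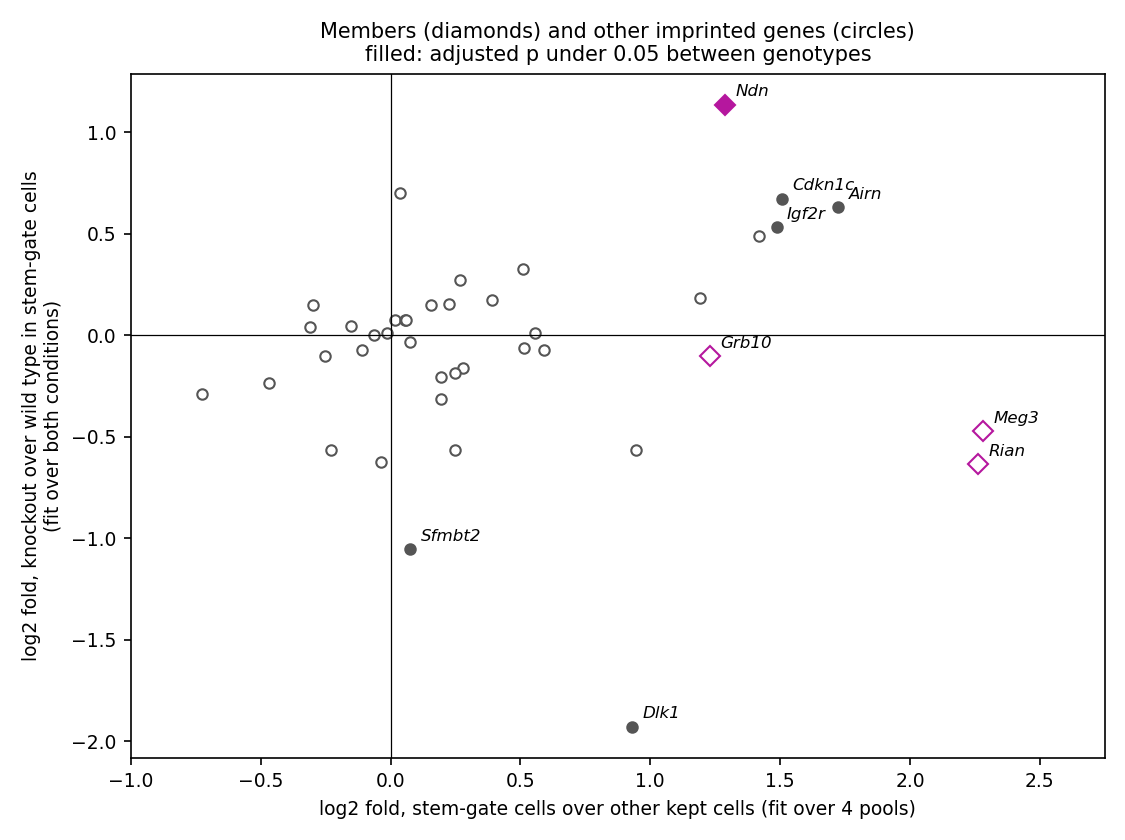
Log2 fold of stem-gate over other kept cells (x axis) against log2 fold of knockout over wild type in stem-gate cells (y axis) for the members (diamonds) and other imprinted genes (circles) tested in both fits. Filled symbols passed an adjusted p under 0.05 between genotypes, and Meg3 (2.28) and Rian (2.26) lie farthest to the right, Ndn (1.14) highest.

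The genes whose levels were most like those of a member were sought over 24 sums (6 gates in 4 pools), as Pearson's r of log2(CPM + 1) centred within a condition. The lineage-primed and cycling gates can share cells, and the sums share libraries and cells' depth, so r is a description. Leaving out the members, for Meg3 they were Gm973 (r = 0.965), Col4a2 (0.946) and Fcho2 (0.944), with Rian at 0.928. Members aside, those of Rian were Nav2 (0.906), C1qtnf4 (0.885) and Nfe2l2 (0.884). For Ndn they were Enpp5 (0.964), Plxdc2 (0.948) and Socs2 (0.937), and for Grb10 Prkg1 (0.964), Ctnnd1 (0.949) and Fam110c (0.948). Ndn and Grb10 had an r of 0.757 with each other and of 0.499 and 0.592 with Meg3.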

How the data were processed

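Single-cell 3′ RNA-Seq (10x Genomics) was performed by the authors on LSK cells in 2 libraries, each with a hashtag library. The deposited values are raw UMI counts for each gene in each barcode, which the authors obtained from Cell Ranger (4 at homeostasis, 6.0.1 after 5-FU, per the file headers). The submitters' processing notes name mm9, while intron and strand settings were not stated in the sources read. Some genes differed widely between the libraries. Wild-type stem-gate Kcnq1 was at 62.8 CPM at homeostasis and 0.147 CPM after 5-FU, Mecom at 992.1 and 193.5 CPM. Peg13 went the other way, at 0 and 43.1 CPM. Whether the libraries were counted under different settings was not tested, so CPM values should not be compared between them. The homeostasis matrix was unfiltered (6794880 barcodes, 23931 called as cells here at 2921 UMIs or more), and its gene rows were named from the 5-FU feature list (correlation of log counts 0.926 in the given order, at most 0.395 when shifted by 1 to 3 rows).

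Genotypes came from HTODemux (Seurat 5.3.0, quantile 0.99), with the hashtag of each genotype taken from the study's methods. The 80% hashtag rule, an alternative, assigned genotype by the dominant hashtag at that share. Under it, stem-gate cells at homeostasis went from 4621 to 2792 in wild-type and from 2277 to 555 in knockout pools. After 5-FU they went from 1355 to 1276 and from 1292 to 1320. Genotype labels at homeostasis thus depended more on the rule, and the part of cells with mixed hashtags in the results was not tested. Cells in the outer 2% of UMIs, genes or mitochondrial share, and cells with at least 2 UMIs of 9 lineage genes, were left out. Cells with both hashtags were removed as doublets, while doublets within a genotype stay. Cells under 4000 UMIs (4.75% to 10.6% of a pool) were left out of the gates, of the other kept cells and of the cells of no gate.

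Summed counts were tested with edgeR 4.0.16 (R 4.3.3), as pool plus gate on 8 sums and as condition plus genotype on 4 stem-gate sums, with an adjusted p under 0.05 as the threshold. The script was tested on simulated data. DESeq2 1.42.0, other gates, filters and scalings were alternatives. Ratios within a condition had 0.5 added to each count, needed 20 UMIs and were called at 1.5-fold. Pool totals in stem-gate cells ran from 13570370 to 37390054 UMIs. The members and lists were chosen with earlier results of these data known. Named besides the members were Sin3b, the gate's markers, the 10 other imprinted genes with the smallest adjusted p in the gate fit, those past 1.5-fold alike in both conditions, those called between genotypes (chosen after their values were seen), and the 3 genes most like each member with at least 200 UMIs (among genes with at least 500). Markers of other cell types came from set lists, while Nr4a1 fell under none of these rules.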

Additional observations from a re-analysis of the deposited data

Results flagged for a closer look

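Meg3, Rian and Grb10 had ratios of opposite sign in the 2 conditions. On the log2 scale, knockout over wild type in stem-gate cells at homeostasis and after 5-FU was 0.14 and -1.08 for Meg3, 0.17 and -1.50 for Rian, and 0.05 and -0.27 for Grb10. With 1 pool per genotype and condition the difference was not tested, and with a gate of at least 4 markers Meg3, Rian and Grb10 (-0.42, -0.70 and -0.03) were below 0 at homeostasis too.

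Empty barcodes, which belong to no group of the design, held 4 members at a higher level than the kept cells of the homeostasis library, with intervals above 1. H19 was at 1.48 CPM (8 UMIs) against 0.0349 CPM in kept cells, 42.4 times as high (11.4 to 192.0, exact binomial 95% interval). Peg3 was at 1.66 CPM, 8.67 times as high (3.51 to 19.6), Rian at 6.28 CPM, 4.42 times (2.96 to 6.43), and Meg3 at 15.1 CPM, 1.77 times (1.40 to 2.22). Ndn (0.769 times, 0.503 to 1.13) and Grb10 (0.824 times, 0.662 to 1.02) were not higher there, and Mirg (2.83 times, 0.314 to 12.2) rests on 2 UMIs.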

How the results depend on the processing

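Meg3, Rian, Ndn and Grb10 were called higher in stem-gate cells under each of the 16 alternatives, with log2 differences of 1.13 to 2.62, 1.24 to 2.46, 0.63 to 1.71 and 0.54 to 1.62. Leaving out a pool left all 4 called (lowest and highest count 4), and without a filter 6 members were called. The other imprinted genes called there were 22, with 18 to 23 in the alternatives but 9 against cells of no gate, and 19 to 22 when a pool was left out. Over all genes 6464 were called, 3455 with the gate on full counts and 2622 against cells of no gate. Dlk1 (log2 0.93) lost its call in that fit at 2 or more markers (log2 0.79, edgeR adjusted p = 0.0537), against cells of no gate (log2 0.06, edgeR adjusted p = 0.927), without the wild-type homeostasis pool (edgeR adjusted p = 0.0854) and without the knockout 5-FU pool (0.0531).

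Ndn was called between genotypes in all 11 alternatives. The count of members, 1, was 2, with Meg3, at 4 or more markers, at 2 of 7 markers without Mecom and Hlf (added after the data were seen) and without a filter. The 5 other imprinted genes became 3 under both narrower gates, 2 under the 80% hashtag rule, 1 with the gate on full counts and 0 by DESeq2. Of all genes, 564 of 14992 were called, 92 of 16530 with the gate on full counts and 1032 of 24129 without a filter, with 118 of 14992 by DESeq2, 224 under the 80% hashtag rule and 344 and 346 at 2 of 7 markers and without Slamf1. Leaving out a pool leaves that fit no residual degree of freedom. Past 1.5-fold at homeostasis, the 1 member became 2 with Peg3 at 2 or more markers and on full counts (log2 1.43 and 1.4, each on 21 UMIs). It became 2 with Rian at 4 or more markers and at 2 of 7 markers (log2 -0.70 and -0.73), and 3 with Meg3 and Rian under equal marker weights. After 5-FU the count was 3, or 4 with Peg3 at 2 or more markers (log2 0.84) and on full counts (log2 0.78). In that condition Meg3 ran from -1.51 to -0.76 and Ndn from 1.01 to 1.26 on the log2 scale. At homeostasis Ndn ran from 0.71 to 1.12. The sums without Nr4a1 cells and without the 10 richest cells were also added after the data were seen. The genotype fit compares pools within a library through its condition term, and the gate fit has pool as its block, so the main fits are the paired ones. Rare members are limited by depth: 3 UMIs are 0.0802 to 0.221 CPM in a stem-gate sum.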
